A study of Mus musculus with 8 samples.

Results

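Early B cell and pre-B receptor genes were followed in cultured mouse haematopoietic stem and progenitor cells (HSPCs) in which Pcgf1 had been knocked down in a Runx1 null background. The set comprised 10 genes, Pou2af1, Mzb1, Ebf1, Pax5, Igll1, Vpreb1, Vpreb3, Cd79a, Cd79b and Blnk, out of 17016 genes with a symbol on the array. A gene was followed through every non-control probe whose transcript accession matched its symbol. Of the 10 genes 9 had such a probe, and Igll1, which encodes a surrogate light chain protein, had none and was not analysed here. A gene entered the test if its probe was well above background throughout 1 group or both, and 7 of these 9 did, among 17293 genes in all. Ebf1 and Pax5 did not.

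Cultures received a retroviral shRNA against Pcgf1 or a control shRNA. Both came from the same 4 Runx1 Δ/Δ mice on a mixed C57Bl/6 and 129SvJ background, 1 culture of each kind per mouse, so each group held 4 arrays. Control cells therefore lacked Runx1 as well, and no cultures with intact Runx1 were analysed here. Bone marrow was depleted of lineage-positive cells and grown for 2 days in serum-free medium with 50 ng/ml mSCF, 100 ng/ml hFlt3 Ligand, 100 ng/ml hIL-11 and 10 ng/ml mIL-3. Puromycin at 5 µg/ml was added 24 h after transduction for 36 h, and 400 ng of total RNA per culture were amplified for a one-colour array. Lineage depletion removes cells with B cell surface markers, and IL-7, the cytokine of B cell precursors, is not among the supplements listed. The labels do not state how or in which cells Runx1 was deleted, nor the ages of the mice.

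B cell precursors are specified by a chain of transcription factors in which Ebf1 and Pax5 commit cells to the B lineage. The precursors then display a pre-B receptor, built from an immunoglobulin heavy chain, the surrogate light chain proteins of the Vpreb and Igll1 genes, and the signalling chains Cd79a and Cd79b. Blnk couples that receptor to its downstream kinases and phospholipase. Pou2af1 is a coactivator that joins Oct factors on the octamer motif, and Mzb1 is a chaperone of the endoplasmic reticulum in antibody-secreting and plasmacytoid dendritic cells. RUNX1 is a known activator of B cell specification, and Pcgf1 is a subunit of the Polycomb complex PRC1.1.

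Pou2af1 fell with the Pcgf1 shRNA to 47.2% of its level with the control shRNA (2.12-fold lower, n = 4 arrays per group), though its probe was well above background on 2 of 4 Pcgf1 shRNA arrays and 4 of 4 control arrays. It was the 1 gene of the 7 tested that passed at an adjusted p of 0.05, with or without mouse as a block. It entered the test only through the control group, where it was higher, and where all 8 arrays had to be above background it was not tested and 0 of 5 tested genes of the set passed (4 at an unadjusted p under 0.05). Without a block 0.763% of all genes tested passed (132 genes, 0.168% lower and 0.596% higher), and with mouse as a block 5.32% passed (2.41% lower and 2.91% higher). Mzb1 stood at 53.9% of control and was lower in 4 of 4 mice, but its adjusted p was 0.124 without a block and 0.0575 with one (limma). Among the tested genes, 5 of 7 were lower in all 4 mice, against 16.2% of all genes tested, and 1 of 7, Vpreb1, was higher in all 4, against 15.6%. Pou2af1 and Mzb1 were the 2 of 7 whose groups did not overlap, both lower, against 7.16% of all genes tested (2.91% lower and 4.25% higher). The median log2 change of the 7 tested genes was −0.34, against 0.00 over all genes tested. In RNA from mixed cultures, fewer cells of a type and less RNA per cell cannot be told apart.

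Knockdown was checked first. The Pcgf1 transcript (chr6:83077552-83080855, GRCm38.p6) read −1.63, −1.64, −1.74 and −1.35 on the log2 scale in the Pcgf1 shRNA cultures of mice 1 to 4, against −0.24, −0.23, −0.45 and −0.01 in their control cultures. The groups did not overlap, and Pcgf1 was at 39.0% of control (log2 change −1.36, SE 0.12, limma adjusted p 0.0197, and 0.0139 with mouse as a block). A two-sided exact permutation test over the 70 splits of 8 arrays, which exchanges arrays freely between mice and so does not use the pairing, gave p = 0.0286, the smallest it allows. Runx1 gave signal on all 8 arrays (log2 change 0.27, adjusted p 0.473), and since the labels do not say whether its probe lies in the deleted stretch, this checks nothing about the deletion. Log2 signals are relative to the 75th percentile of each array, which lay between 519 and 854 intensity units, and of 43379 spots other than controls 54.8% to 62.0% exceeded background clearly. The lowest log2 signal called above background was −5.94 to −5.22, depending on the array. Precision is limited throughout by the number of arrays.

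Both arrays of mouse 4 stood apart from the other 6 arrays in many genes, some lymphoid genes among them. With the Pcgf1 and control shRNA, Dntt, the template-independent polymerase of immunoglobulin and T cell receptor joining, read 1.17 and 0.85 in mouse 4, against −3.13 to −2.59 on the other 6 arrays. Ly6d, a surface marker of B-primed lymphoid progenitors, read 1.44 and 2.13 in mouse 4, against −3.58 to −1.85 elsewhere. Among genes with a probe, both arrays of mouse 4 lay above all 6 others for 5 of 8 lymphoid progenitor genes. They did so for 9 of 14 plasmacytoid dendritic cell genes, among them Siglech, Ccr9 and Spib. Dntt and Ly6d are on both lists. These counts take in the untested genes Rag1, Lax1, Siglech and Atp1b1, and Siglech was above background on 2 of 8 arrays. Over all genes tested, which leave out such dim genes, 12.1% lay above in this way. Both arrays lay below all 6 others for 1 of 8 lymphoid progenitor genes, Cd93, and for 2 of 14 plasmacytoid dendritic genes, which 19.5% of all genes did. Of the 9 early B cell genes with a probe, 0 lay above the other 6 arrays in this way and 1, Vpreb3, lay below them. For the pre-B receptor and its signalling, 1 of 20 genes with a probe lay above and 7 lay below. For B lineage transcription factors 6 of 17 lay above and 1 below, and for mature B surface genes 4 of 10 and 1. The genes above include the untested Irf4, Fcrla and Fcer2a, which were above background on 2, 1 and 0 of 8 arrays.

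The plot of mouse 4 against mice 1 to 3 sets the lymphoid progenitor list beside the early B cell genes. On the log2 scale mouse 4 exceeded the mean of the other mice by 4.32 for Ly6d, 3.82 for Dntt and 2.29 for Flt3, the receptor for 1 of the cytokines added. It differed the other way by −0.998 for Cd93, a surface receptor of progenitors, −0.70 for Il7r and, below background, −0.09 for Rag2. Rag1, a recombinase subunit, and Lax1, an adaptor of lymphocytes, read 2.76 and 1.82 higher in mouse 4. They were above background on only 2 and 1 of 8 arrays, so the size of these differences is uncertain. For the early B cell genes the same difference ran from −0.47 for Pax5, a value below background, to 1.29 for Blnk. Ebf1 differed by −0.12 and remained below background in mouse 4 too. Without mouse 4, Pou2af1 read a log2 change of −0.998 (limma adjusted p 0.0534, and 0.0424 with mouse as a block) and Mzb1 −0.96 (adjusted p 0.0995 and 0.109).

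**Figure D1:**
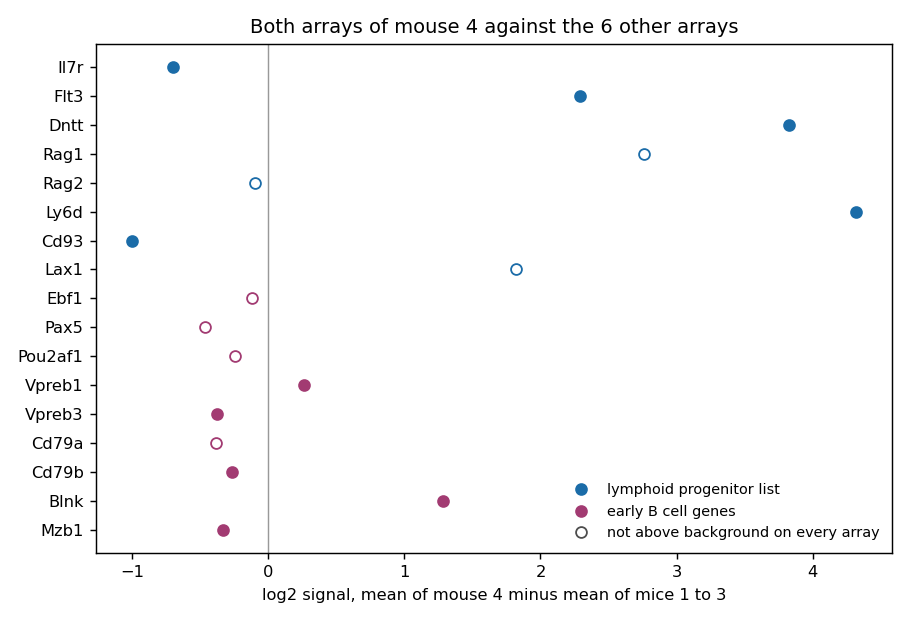
Difference in log2 scaled signal between the mean of both arrays of mouse 4 and the mean of the 6 arrays of mice 1 to 3 (x axis), for each lymphoid progenitor gene and early B cell gene with a probe (rows). Open circles mark genes that were not above background on every array. Ly6d, Dntt and Flt3 lay 2.29 to 4.32 higher in mouse 4. Rag1 and Lax1, not above background on every array, lay 2.76 and 1.82 higher. Cd93 and Il7r lay lower (−0.998 and −0.70), and the early B cell genes lay between −0.47 and 1.29.

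The 250 bases before the annotated start are shown for 4 genes, because Pou2af1 protein acts at octamer motifs and the cells lacked Runx1. These genes are the called gene Pou2af1, Blnk and Vpreb3, whose windows hold an octamer, and Vpreb1, the 1 tested gene higher in all mice. The sequences are those of RefSeq on GRCm38.p6, 5′ to 3′ on the strand of the gene. They span chr9:51213440-51213689 (Pou2af1, plus strand), chr19:40994222-40994471 (Blnk, minus strand), chr10:75948050-75948299 (Vpreb3, plus strand) and chr16:16869256-16869505 (Vpreb1, minus strand). The Vpreb3 window lies inside the annotated span of the gene, before a later start. Capitals mark matches to the octamer ATGCAAAT or to the RUNX motif TGTGGT, on either strand.
Pou2af1: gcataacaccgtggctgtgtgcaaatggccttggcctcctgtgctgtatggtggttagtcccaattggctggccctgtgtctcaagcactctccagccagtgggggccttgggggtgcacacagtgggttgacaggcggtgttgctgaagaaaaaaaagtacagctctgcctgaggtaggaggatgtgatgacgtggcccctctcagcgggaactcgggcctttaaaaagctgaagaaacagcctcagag
Blnk: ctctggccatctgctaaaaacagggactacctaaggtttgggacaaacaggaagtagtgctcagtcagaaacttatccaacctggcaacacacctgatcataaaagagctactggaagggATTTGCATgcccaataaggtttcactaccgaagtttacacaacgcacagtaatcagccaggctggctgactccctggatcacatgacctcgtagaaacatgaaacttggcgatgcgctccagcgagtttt
Vpreb3: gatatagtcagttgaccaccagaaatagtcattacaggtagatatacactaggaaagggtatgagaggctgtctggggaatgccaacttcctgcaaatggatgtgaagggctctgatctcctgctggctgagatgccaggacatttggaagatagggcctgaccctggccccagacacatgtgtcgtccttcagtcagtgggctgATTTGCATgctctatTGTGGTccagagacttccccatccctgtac
Vpreb1: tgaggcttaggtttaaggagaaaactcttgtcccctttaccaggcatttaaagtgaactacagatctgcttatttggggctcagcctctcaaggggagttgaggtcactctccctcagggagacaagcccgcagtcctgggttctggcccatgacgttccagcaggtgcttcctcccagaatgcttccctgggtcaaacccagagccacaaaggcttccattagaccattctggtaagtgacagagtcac

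In Blnk the octamer lay at −130 to −123 from the start, and in Vpreb3 at −45 to −38, with a RUNX match at −30 to −25. Both octamers read ATTTGCAT on the strand of the gene. Of 32851 windows of the same length 1.6% held the octamer and 14% the RUNX motif. The palindromic EBF motif, found in 0.779% of windows, was in none of the 9 windows of the 8 genes that had one, and the E-box CANNTG, found in 66.2%, was not put in capitals. No octamer or RUNX match overlapped another motif that was searched. The RUNX motif was also in a window of Ebf1 and in that of Igll1. A match is a description of letters, and no binding was measured. The windows of Blnk and Vpreb3, which share the octamer, belonged to genes with log2 changes of −1.34 and −0.17, and neither gene passed the test.

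Among the transcription factors, Ebf1, which specifies the B lineage (chr11:44618100-45008096), was above background on 0 of 8 arrays. Its signals were 2.82, 3.14, 3.23 and 3.35 intensity units in the Pcgf1 shRNA cultures of mice 1 to 4, against 2.87, 3.62, 2.10 and 3.51 in their control cultures. Each of the 8 values lay within 0.12 log2 units of the median of the 153 negative control spots on its array. Pax5, which maintains B cell identity (chr4:44524748-44710694), was also above background on 0 of 8 arrays, with 8.38, 15.0, 3.87 and 7.13 units in the Pcgf1 shRNA cultures, against 6.70, 6.38, 4.10 and 5.27 units in the control cultures. Both genes were dim in both groups and the groups overlapped, so no fold change is given. A signal at background does not show that a transcript was absent.

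Pou2af1, the octamer coactivator (chr9:51213690-51240079), had signals of 17.7, 14.5, 18.2 and 16.7 intensity units in the Pcgf1 shRNA cultures of mice 1 to 4, against 38.1, 23.3, 30.0 and 34.7 units in the control cultures. On the log2 scale these were −4.94, −5.54, −5.31 and −5.68 with the Pcgf1 shRNA, against −4.05, −4.48, −4.27 and −4.34 with the control shRNA. All 4 Pcgf1 shRNA values lay below all 4 control values, which 2.91% of all genes did. The probe was above background on 2 of 4 Pcgf1 shRNA arrays, those of mice 1 and 3, and on 4 of 4 control arrays, so it entered the test through the control group. Within mice the log2 changes were −0.89, −1.07, −1.04 and −1.34. The fitted change was −1.08 (SE 0.17, 95% interval −1.47 to −0.69, limma adjusted p 0.0354 without a block, 0.0149 with mouse as a block).

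The change of Pou2af1 was of like size on both slides, −0.98 for mice 1 and 2 and −1.19 for mice 3 and 4. Its call was lost when both arrays of any 1 mouse were left out of the fit without a block (changes −1.15 to −0.998, adjusted p 0.0534 to 0.352). With normexp background correction of the median spot and background signals, at an offset of 50 units, the change was −0.40 (limma adjusted p 0.263). The processed signals of the Pou2af1 probe were 14.5 to 38.1 units, and the part of the offset in the smaller change was not tested.

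**Figure D2:**
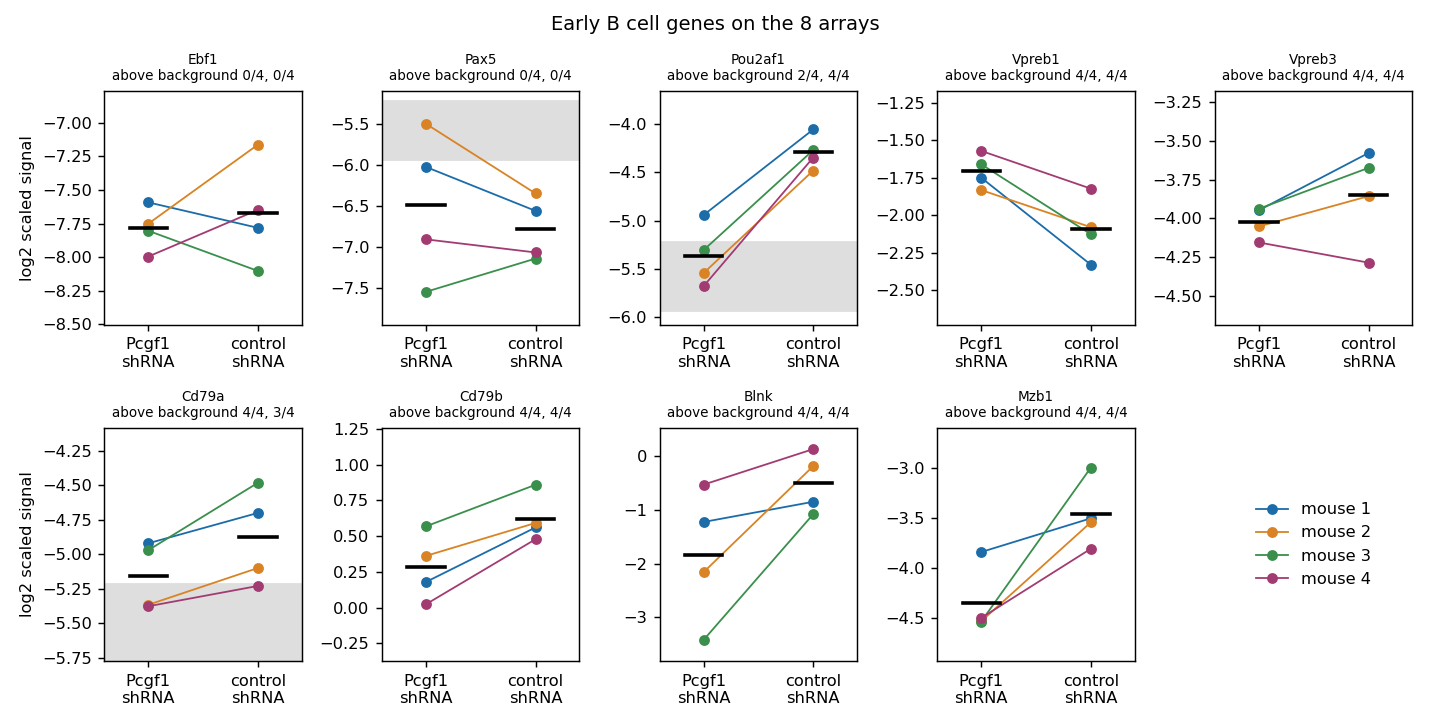
Log2 scaled signal (y axis, relative to the 75th percentile of the array, with its own range in each panel) of 9 early B cell genes in Pcgf1 shRNA and control shRNA cultures. Lines join the cultures of a mouse, black bars are group means of 4 arrays, panel titles give the arrays above background (Pcgf1 shRNA, control shRNA), and the grey band spans the lowest signal called above background on the 8 arrays. Pou2af1 and Mzb1 are lower with the Pcgf1 shRNA without overlap, Vpreb1 is higher in each mouse, and Ebf1 and Pax5 are below background.

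Of the surrogate light chain genes, Vpreb1 (chr16:16868401-16869255), which encodes the variable-like chain, stood higher with the Pcgf1 shRNA in 4 of 4 mice. It read −1.75, −1.83, −1.66 and −1.57 in the Pcgf1 shRNA cultures, against −2.33, −2.08, −2.13 and −1.82 in the control cultures. The groups overlapped by 1 pair of arrays, since the Pcgf1 shRNA culture of mouse 2 lay just under the control culture of mouse 4. The log2 change was 0.39, or 1.31-fold (SE 0.12, 95% interval 0.11 to 0.66), and it did not pass (limma adjusted p 0.236, and 0.0629 with mouse as a block). Vpreb2, a close paralogue of Vpreb1, had a log2 change of −0.08 on its own probe, and whether these probes separate both transcripts was not tested.

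Vpreb3 (chr10:75943024-75949657), which encodes a protein that binds newly made immunoglobulin chains in B cell precursors, had a pair of probes. On the brighter one it read −3.95, −4.05, −3.94 and −4.16 with the Pcgf1 shRNA, against −3.58, −3.86, −3.67 and −4.29 with the control shRNA. Its change was −0.17 (SE 0.15, adjusted p 0.705), lower in 3 of 4 mice, with mouse 4 the exception. The other probe gave −0.16 (adjusted p 0.681 over all probes). Both probes put the groups in overlap, and the 95% interval on the brighter one, −0.53 to 0.18, spans no change.

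The signalling chains were lower in each mouse by small amounts that did not pass. Cd79b (chr11:106311341-106314562), the Ig-beta chain, read 0.18, 0.36, 0.57 and 0.02 in the Pcgf1 shRNA cultures, against 0.56, 0.59, 0.86 and 0.48 in the control cultures. Its changes within mice lay between −0.46 and −0.23, the narrowest range of the 7 tested genes. The fitted change was −0.34 (SE 0.14, adjusted p 0.373), or 79.0% of control, and the adjusted p was 0.0559 with mouse as a block. The highest Pcgf1 shRNA value, that of mouse 3, lay among the control values, so the groups overlapped.

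Cd79a (chr7:24897497-24901858), the Ig-alpha chain, was close to background. It read −4.92, −5.37, −4.97 and −5.38 with the Pcgf1 shRNA, against −4.70, −5.10, −4.48 and −5.23 with the control shRNA. The probe was above background on 4 of 4 Pcgf1 shRNA arrays and on 3 of 4 control arrays, and it entered the test through the Pcgf1 shRNA group. The change was −0.28 (SE 0.19, adjusted p 0.614, and 0.112 with mouse as a block), with overlapping groups.

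Blnk, the adaptor that links the pre-B receptor to its kinases (chr19:40928927-40994221), showed the widest spread between mice of the 7 tested genes. It read −1.23, −2.16, −3.42 and −0.53 in the Pcgf1 shRNA cultures, against −0.85, −0.19, −1.08 and 0.13 in the control cultures. Within mice the log2 changes were −0.38, −1.98, −2.34 and −0.66, large in mice 2 and 3 and small in mice 1 and 4, and the groups overlapped. The fitted change of −1.34 (SE 0.59, 95% interval −2.68 to 0.00500) did not pass (limma adjusted p 0.413, and 0.0879 with mouse as a block).

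Il7r, the receptor for the lymphoid cytokine IL-7, is set beside Blnk here after its values were seen. It had log2 changes of −0.33, −1.56, −3.14 and −0.58 within mice 1 to 4, also farther from 0 in mice 2 and 3, and did not pass. The erythroid markers had medians of −0.27, −1.06, −1.49 and −0.48 in the same mice, and their part in the change of Blnk was not tested.

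**Figure D3:**
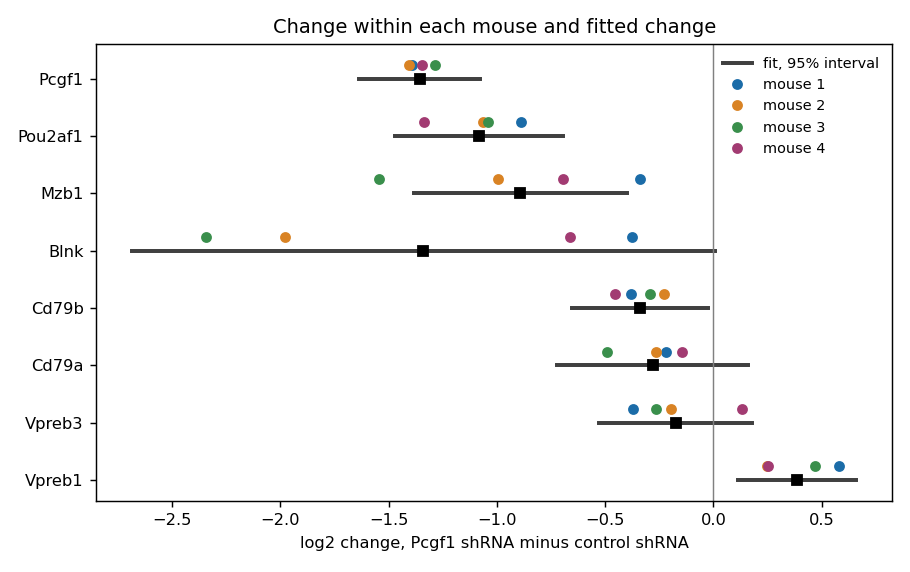
Log2 change of Pcgf1 shRNA minus control shRNA (x axis) for Pcgf1 and the 7 tested early B cell genes. Circles are the changes within each mouse, squares the change fitted by limma without a block, and lines its 95% interval. Pou2af1 lies between −1.34 and −0.89 in the 4 mice, Blnk between −2.34 and −0.38, and Vpreb1 lies above 0 in each.

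Mzb1, the endoplasmic reticulum chaperone (chr18:35647265-35650266), was printed as 10 spots of 1 probe on each array. Their spread shows the error between spots of an array, not the error between arrays. Over spots that carried no outlier flag Mzb1 averaged −3.84, −4.54, −4.54 and −4.50 in the Pcgf1 shRNA cultures of mice 1 to 4, against −3.50, −3.54, −3.00 and −3.81 in the control cultures. The groups did not overlap, but only narrowly, since the Pcgf1 shRNA culture of mouse 1 read just below the control culture of mouse 4. The changes within mice were −0.34, −0.99, −1.54 and −0.69, and the fitted change was −0.89 (SE 0.21, 95% interval −1.38 to −0.40).

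Single spots of Mzb1 gave the same direction. With each spot position of a Pcgf1 shRNA array set against that position on the control array of the same mouse, 39 of 40 pairs were lower with the Pcgf1 shRNA. These 40 pairs come from 4 mice and are not replicates. The SD among unflagged spots of an array was 0.10 to 0.26 log2 units, and the SD of the array means was 0.34 in both groups.

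The call for Mzb1 with mouse as a block depended on how its spots were handled. The scanner software flagged 6 of its 80 spots as outliers of their replicate set. The control array of mouse 4 held a pair of them, 1 at 371 units, while its other spots lay between 40.6 and 59.0 units. With flagged spots left out the adjusted p was 0.0575 with mouse as a block, and with them kept the change was −1.02 with an adjusted p of 0.0437 (limma, mouse as a block). With the median over all spots it was −0.94 with an adjusted p of 0.0432. With normexp background correction the change was −0.43 (adjusted p 0.308).

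**Figure D4:**
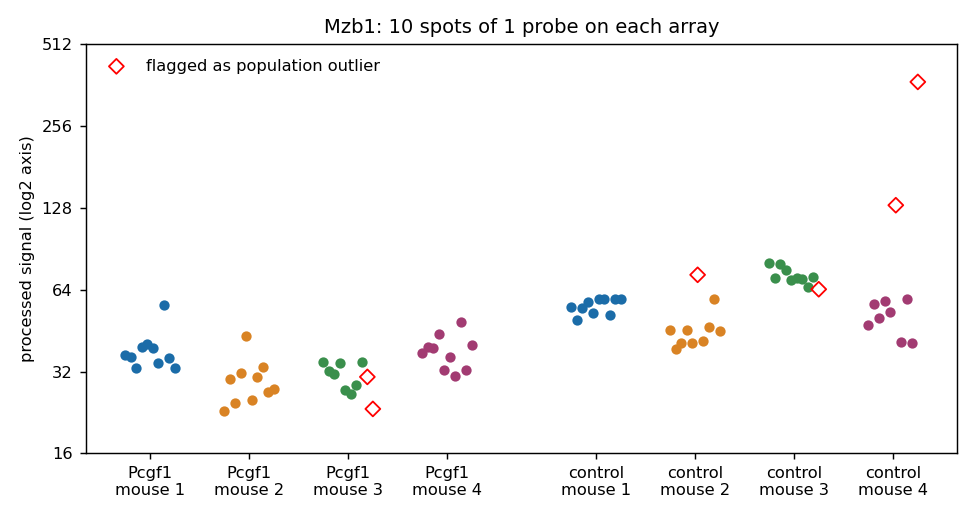
Processed signal of each of the 10 Mzb1 spots (y axis, log2 axis in intensity units) on the 8 arrays, Pcgf1 shRNA on the left and control shRNA on the right. Open diamonds are spots flagged as population outliers, the highest at 371 units on the control array of mouse 4. By position, 39 of 40 spots lie lower on the Pcgf1 shRNA array than on the control array of the same mouse.

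Genes with the most similar pattern were named for Pou2af1 and Mzb1, by Pearson's r of log2 signal over the 8 arrays among 11716 other tested genes with a symbol. For Pou2af1 they were Sardh (0.99), Ptpn21 (0.97), Plin2 (0.96), Tmem167b (0.95) and Slc25a36 (0.95). For Mzb1 they were Rac3 (0.99), Arl5c (0.98), Plin2 (0.97), Jchain (0.97) and Ski (0.97). Pou2af1 and Mzb1 themselves had r of 0.90 with each other, and Pou2af1 and Vpreb1 −0.83. All these values are descriptions over arrays that share the knockdown, the mice and the slides.

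The lists around these genes are read against all genes tested, of which 12.2% had an unadjusted p under 0.05 without a block. Of 18 tested genes of the pre-B receptor and its signalling, 0 passed in limma, with or without mouse as a block (5 at an unadjusted p under 0.05), and the median log2 change was −0.07. Among them Syk, the kinase of the receptor, stood at −0.15, Btk, the kinase downstream of it, at 0.04, and Plcg2, the phospholipase, at 0.01. Prkcb, a protein kinase C of the same pathway, had −0.32 (adjusted p 0.348).

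Of 13 tested B lineage transcription factors, Pou2af1 alone passed without a block, against 0.168% lower over all genes. The list's median was −0.13. Pou2af1 entered the test through the control group only. With mouse as a block 4 fell, against 2.41% lower over all genes. Besides Pou2af1 these were Spib, an ETS factor of B and plasmacytoid dendritic cells (log2 change −0.72, adjusted p 0.0294), Bcl11a, a factor needed for early lymphoid cells (−0.48, adjusted p 0.0431), and Irf8, a factor of B, dendritic and monocytic cells (−0.47, adjusted p 0.0485). All 3 were lower in every mouse. The Oct factors that Pou2af1 binds did not pass, with Pou2f1 at 0.01 and Pou2f2 at −0.30 (adjusted p 0.409). Lef1 was below background on all 8 arrays, as Ebf1 and Pax5 were.

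Among 5 tested lymphoid progenitor genes, 0 passed without a block (1 at an unadjusted p under 0.05). With mouse as a block 1, Ly6d, fell (−0.89, limma adjusted p 0.0433), against 2.41% of all genes. Il7r stood at −1.40 (adjusted p 0.407, and 0.142 with mouse as a block). Of 6 tested surface genes of mature B cells, 0 passed in either limma fit (1 at an unadjusted p under 0.05). Cd22, an inhibitory coreceptor of B cells that was above background on 2 of 4 Pcgf1 shRNA arrays and 4 of 4 control arrays, had −1.08 (adjusted p 0.429). Ms4a1, which encodes CD20, Fcer2a and Cxcr5 were below background on all 8 arrays.

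Of 12 tested genes of plasma cells and secretion, 0 passed without a block (5 at an unadjusted p under 0.05, against 12.2% of all genes). With mouse as a block 1 fell and 1 rose, against 2.41% and 2.91% of all genes. Jchain, the joining chain of secreted IgM and IgA, fell (−1.38, adjusted p 0.0173, and 0.0578 without a block), and Sdc1, a surface proteoglycan of plasma cells, rose (0.51, adjusted p 0.0402). Prdm1, the repressor that drives plasma cell differentiation, had −1.18 (adjusted p 0.265) and was above background on 3 of 4 Pcgf1 shRNA arrays. The chaperones Hspa5 and Hsp90b1, with which secretory cells fold proteins, had 0.10 and 0.09. The list's median was −0.03.

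**Figure D5:**
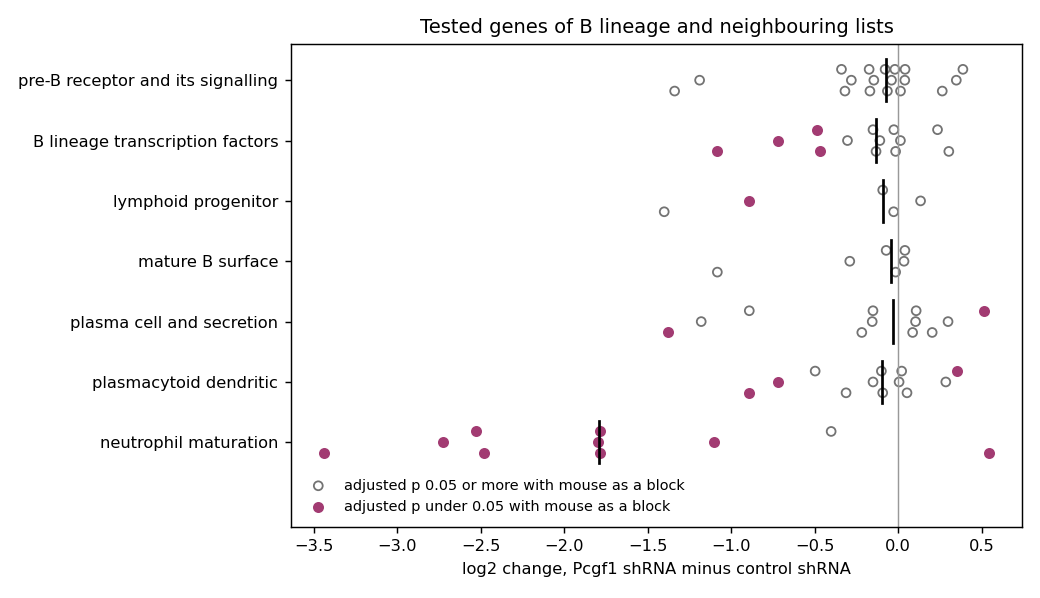
Log2 change of Pcgf1 shRNA minus control shRNA (x axis, limma) for each tested gene of 7 lists (rows). Filled circles are genes with an adjusted p under 0.05 with mouse as a block, and black lines are list medians. The B lineage and plasmacytoid dendritic lists centre between −0.13 and −0.03, and the neutrophil maturation list at −1.79.

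Markers of other cell types moved between the groups beside the early B cell genes. Of 10 tested neutrophil maturation genes 3 fell in limma without a block, against 0.168% of all genes. They were Fpr1 (−2.53, adjusted p 0.0470), Fpr2 (−1.79, adjusted p 0.0264) and Ngp (adjusted p 0.0287). With mouse as a block 8 fell and 1 rose, against 2.41% and 2.91% of all genes. Ngp was above background on 0 of 4 Pcgf1 shRNA arrays and 4 of 4 control arrays, so it entered the test only through the control group. Set against the lowest signals called above background it was at least 3.39-fold lower. Ltf, 1 of the 8 lower with mouse as a block, had the same limit and was at least 5.11-fold lower. The list's median of −1.79 was −1.78 with such genes at their bound. Over the 11 genes of that list with a probe, the summed linear signal relative to the 75th percentile was 12.1 to 45.7 on the Pcgf1 shRNA arrays, against 85.6 to 234 on the control arrays, and Mmp9 was below background on all 8 arrays. The erythroid sum was 53.9 to 189, against 123 to 259 in the control cultures. Of its 10 tested genes 0 were called without a block (2 at an unadjusted p under 0.05). With mouse as a block 3 were lower, against 2.41% of all genes. Linear sums follow the brightest genes of a list most. These were S100a9 for neutrophils (mean log2 4.18 with the Pcgf1 shRNA, 6.66 with the control) and Hba-a1 for erythroid cells (6.22 and 6.87).

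The plasmacytoid dendritic sum, over 14 genes, was 31.9 to 38.4 on the Pcgf1 shRNA arrays, against 32.7 to 39.4 on the control arrays. Bst2, with mean log2 signals of 4.75 and 4.73 in these groups, makes up most of that sum. The sum therefore says little about the dimmer genes of the list. With mouse as a block 1 of 12 tested genes, Runx2, rose and 2, Spib and Ly6d, fell, against 2.91% and 2.41% of all genes. Spib and Ly6d are also among the genes called on the lists above. The sum of the T and NK list was 6.14 to 9.65, against 5.01 to 7.34 in the control cultures. Of its 7 tested genes 1, Lck, was called higher (0.91, limma adjusted p 0.0339), against 0.596% of all genes. With mouse as a block 3 were higher, against 2.91%. Cd3d, Cd3g, Cd247, Bcl11b, Cd8a, Ncr1 and Klrb1c were below background on all arrays. The sum over stem and progenitor genes was 37.2 to 43.6, against 26.2 to 27.6 in the control cultures. Without a block 3 of its 11 tested genes rose, Hoxa9, Cd34 and Sox4, against 0.596% of all genes. With mouse as a block 4 rose and 1, Ly6a, fell (−0.68, limma adjusted p 0.0285), against 2.91% and 2.41% of all genes. The T and NK sum likewise follows Thy1 and Nkg7 most, and the stem and progenitor sum Cd34. The part of these cell types in the changes of Pou2af1 and Mzb1 was not tested.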

How the data were processed

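RNA from 8 cultures was hybridised to one-colour Agilent arrays. The deposited spot files hold, per the file headers, the processed intensity of each spot after background subtraction, with no normalization between arrays. They were read with Agilent Feature Extraction 10.1, per the submitters' processing notes. The value table that the authors deposited gives log2 values, centred on each probe's median over the arrays (slope 1.00 against the spot files over 10070 probes). Its column medians were 0.10, −0.05, −0.11 and −0.20 (Pcgf1 shRNA, mice 1 to 4) and 0.05, 0.11, 0.10 and −0.13 (control shRNA). It served as an alternative, and no source used here says what it was scaled to.

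The log2 of the processed intensity was set relative to the 75th percentile of each array's non-control spots. Left out were 881 values flagged as non-uniform (242) or population outliers (652). Spots of a probe were averaged. Of 41174 probes, 24375 were named by accession through an annotation of GRCm38.p6, and 22736 were well above background on all 4 arrays of a group and kept. The brightest probe stood for a gene. The test was that of limma 3.58.1 (R 4.3.3; two-sided moderated fit by lmFit and eBayes) with Benjamini-Hochberg adjustment over 17293 genes, without a block and, beside it, with mouse as a block. The labels number the mice, so same-numbered cultures are paired, and with group means removed they correlated across genes with r of 0.44, 0.48, 0.41 and 0.64. Each slide held both cultures of 2 mice.

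The genes followed and the lists were chosen with earlier results of these data known, so counts over lists are descriptions. Named genes are the 10 followed, Pcgf1 and Runx1, the 4 of each list with the smallest p, those called in either fit, and the 5 most similar in pattern. Other list genes were named after their values were seen. Alternatives covered the block, slides, left-out mice, quantile and normexp normalization (on median spot and background signals), probe filters, flagged spots and the authors' table. Some genes that this rule takes are not reported here.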

Additional observations from a re-analysis of the deposited data

Results flagged for a closer look

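Of 24 groups of 4 arrays checked for a value far from the rest, 1 held such a value, and chance alone gives about 1 in 20. Mzb1 in the Pcgf1 shRNA culture of mouse 1 read −3.84 on the log2 scale, while the Pcgf1 shRNA cultures of the other 3 mice read −4.54 to −4.50. None of its 10 spots there was flagged.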

How the results depend on the processing

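With mouse as a block, 920 genes were called against 132 without it. Keeping outlier spots, or taking the median over spots, gave 921 with the block. Normexp gave 77. No filter on dim probes gave 0 of 32969 genes (2200 at an unadjusted p under 0.05), and the slides on their own gave 0 each (2373 for mice 1 and 2, 619 for mice 3 and 4). Without 1 mouse the count was 0 to 363 without a block (999 and 1089 unadjusted for the 0 without mice 2 and 3), and with it 283, 0, 305 and 145 without mice 1 to 4 (2434 unadjusted without mouse 2). Of these calls 78.0% were higher without a block, 54.7% with it and 67.5% with normexp. Of the early B cell genes 1 was called, but 2 with the block where outlier spots were kept or the median over spots was taken. It was 0 with no filter, with normexp, within each slide, without any 1 mouse (0 to 0, and 0 to 1 with the block), and where all 8 arrays had to be above background, a filter that Pou2af1 does not pass. At an unadjusted p under 0.05 there were 2 to 7 of them in these settings. Their median stayed between −0.38 and −0.31 in all settings that give one. Pcgf1 kept its size but lost its call with no filter (−1.36, adjusted p 0.104), within the slides (−1.40 and −1.31, adjusted p 0.123 and 1.00) and without mouse 1, 2 or 3 (−1.38 to −1.34), and with the block without mouse 2 (−1.34, adjusted p 0.0895). A slide by treatment interaction, added after seeing the data, called 0 of 17293 genes (limma, 112 unadjusted). The handling of outlier spots was also chosen after seeing the data. No filter means more genes tested, and a left-out mouse or slide fewer arrays. Other causes were not tested. Dim signal limits Ebf1, Pax5, Cd79a and Pou2af1.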
